A study of Mus musculus with 18 samples.

Results

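The comparison set cells on day 12 of chemical reprogramming (D12, 2 libraries) against cells on day 10 (D10, 2 libraries), the last interval sampled before the finished induced pluripotent cells. These are 4 of the 18 RNA-seq libraries of a time course in which mouse cells were collected every 2 days. Both groups were grown from mouse embryonic fibroblasts (MEFs) of passages 1-3, taken from embryos that the labels give as 129XOG2 E13.5, and both are labelled as reprogramming intermediates. OG2 is a reporter line in which green fluorescent protein is driven by regulatory sequence of Pou5f1. The cells had been moved from MEF medium to a reprogramming medium whose agents the labels do not list, and nothing in the labels says whether that medium changed between D10 and D12. Nothing says either that the 2 libraries of a group came from separate cultures. Each p-value therefore reflects just the scatter between libraries within groups, pooled over all 9 groups of the series, and that scatter may be technical. The induced pluripotent cells (riPSC, 2 libraries) given below as a level to compare with were kept on feeder cells in medium with LIF, CHIR99021 (a GSK3 inhibitor) and PD0325901 (a MEK inhibitor). All autosomal and mitochondrial genes with an FPKM (sequenced fragments per unit of transcript length, scaled to the library total) of at least 1 in at least 2 of the 18 libraries were compared, which took 15830 of the 55401 genes in the files.

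Chemical reprogramming turns fibroblasts into pluripotent stem cells with small molecules in place of introduced transcription factors. In mouse it passes through an epithelial state with genes of extraembryonic endoderm before the pluripotency network is switched on, and cells that express genes of the embryo at the 2-cell stage have been described on the way. ERK, Wnt and interferon signalling each leave a known set of target and feedback genes in the transcriptome, and the mitotic genes are expressed mainly in cells about to divide. The libraries are bulk RNA, so fewer cells of a type and less RNA per cell cannot be told apart.

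Sequencing depth is not given in the sources used here. The FPKM step that corresponds to a single read, taken from genes of 1 exon and inverse to depth, lay between 0.0286 and 0.0306 FPKM for a transcript of 1 kb in the 4 libraries, so that they were of similar depth. Between 12907 and 12980 genes had an FPKM of at least 1 in each. Replicates correlated at 0.993 on D10 and 0.990 on D12 across genes, and the median gene differed between replicates by 0.0923 and 0.1003 on the log2(FPKM + 1) scale. The 4 libraries differed by day in 1 respect that touches every level: mitochondrial genes took 11.7% and 11.1% of the FPKM sum weighted by gene length on D10, and 18.6% and 18.2% on D12. FPKM is a share of all reads, so a larger mitochondrial share lowers every nuclear value in proportion. The median gene differed by -0.05 on the log2 scale.

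A gene was called higher or lower where limma gave a Benjamini-Hochberg adjusted p under 0.05 over all 15830 genes and the difference was at least 2-fold on the log2(FPKM + 1) scale; rose and fell below refer to such calls. This scale understates the fold of genes at low levels. Where called genes are said below not to overlap between the days, that describes genes chosen by their difference and is no further support. The share of all tested genes without overlap is not given here. Between D10 and D12, 1684 genes were called, or 10.6% of those tested: 953 were higher on D12 (6.02%) and 731 lower (4.62%). Of the 953 higher genes, 224 passed the filter on low values only through the D10 and D12 libraries and so had little room not to differ, against 9 of the 731 lower genes. Dividing each library by the length-weighted share of its FPKM outside mitochondrial genes, which sets nuclear genes against each other, gave 1195 higher and 628 lower genes. An adjusted p under 0.05 without the 2-fold requirement took 2622 higher and 2950 lower genes. The plot of D12 against D10 levels shows the called genes on both sides of the diagonal.

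**Figure D1:**
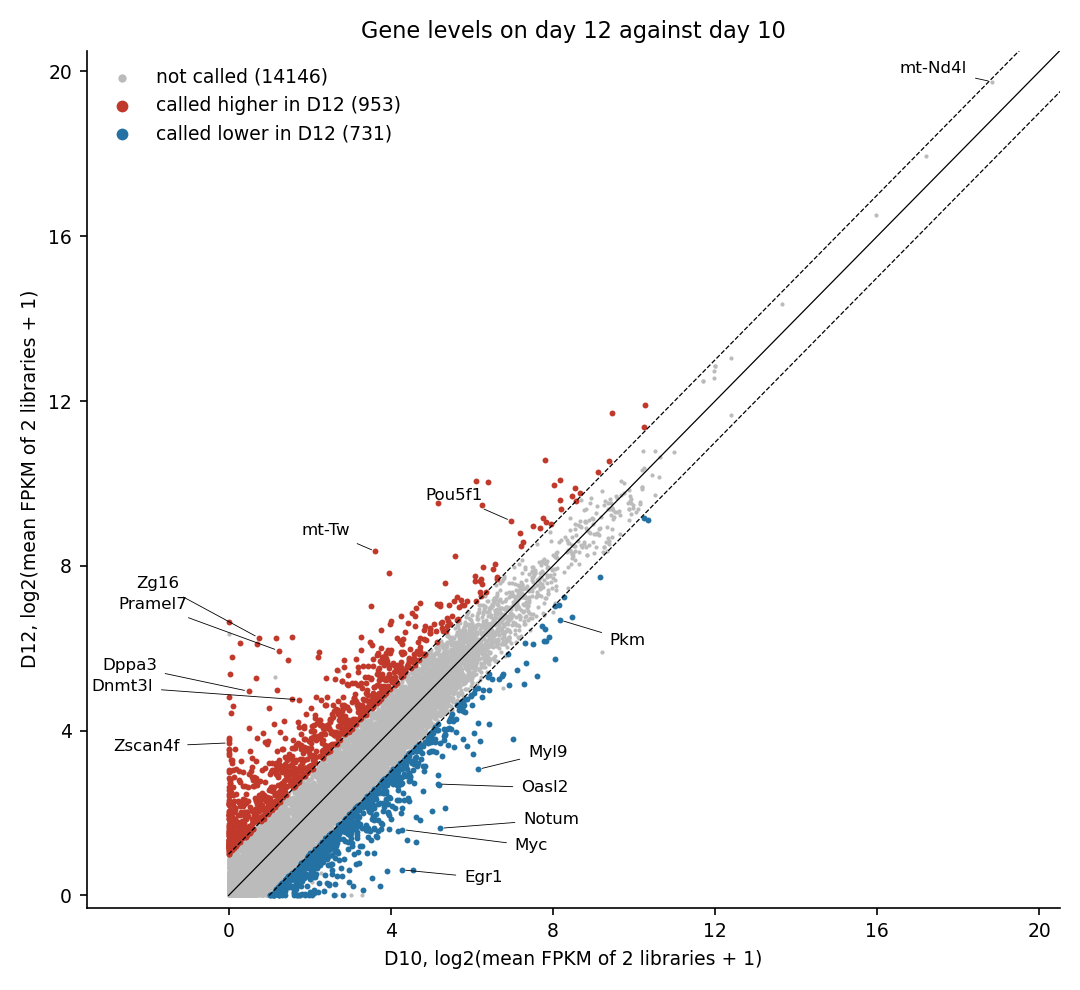
Level of each of the 15830 tested genes on D12 (vertical) against D10 (horizontal), both as log2 of the mean FPKM of 2 libraries plus 1. Red points are the 953 genes called higher on D12, blue points the 731 called lower, grey points the rest, and the dashed lines mark a 2-fold difference; mt-Nd4l at the upper right has the highest level of all genes on both days and was not called.

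Many of the largest rises came from 1 stretch of chromosome 11. Of the 15 genes with the highest fold change, 6 lay there together, and the called genes of the stretch ran between bases 46524212 and 46779578 (GRCm38), a span of 255.4 kb. Dppa1, a gene named for its tie to pluripotency, was at 0.338 and 0.0914 FPKM on D10 and at 75.0 and 63.0 FPKM on D12 (log2 fold change 5.85 ± 0.13 SE, adjusted p = 1.4e-11). Havcr1, which encodes the kidney injury and phosphatidylserine receptor KIM-1, was at 0.750 and 0.499 FPKM and then at 70.4 and 66.1 FPKM (5.42 ± 0.09, adjusted p = 1.3e-12). Its relative Timd2, a receptor for H-ferritin, went from 0 and 0.154 FPKM to 24.1 and 22.3 FPKM (4.49 ± 0.09). In each of these the D12 libraries stood far above both D10 libraries, with no overlap. The interval from Havcr2 to Timd4 holds 13 annotated genes, of which 8 were tested and 7 were called higher: Gm12169, BC053393, Dppa1, the noncoding Gm4926, the pseudogene Gm12173, Timd2 and Havcr1. These 7 passed the filter on low values only through D12 or D10 and D12, so their count is a description and no measure of the interval. The tested gene that was not called, the processed pseudogene Gm12174, was at 8.88 and 8.76 FPKM on D10 and at 6.12 and 7.49 FPKM on D12. Havcr2 and Timd4 at the ends, further members of the TIM receptor family, were listed at 0 in all 4 libraries. In riPSC the called genes of the interval were at or near 0: Dppa1 was at 0.0219 and 0 FPKM and Havcr1 at 0.0234 and 0 FPKM, and across the 14 libraries of the other groups no called gene of the interval exceeded 0.409 FPKM. Whether transcripts that run through neighbouring genes add to these values was not tested.

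Called genes stood next to each other in other places too. Among tested genes ordered along the chromosomes there were 13 runs of at least 4 neighbours that were all higher on D12, the chromosome 11 stretch and runs of mitochondrial genes included, and 2 runs of at least 4 that were all lower. Untested genes in between were skipped. Of the higher genes 224 passed the filter only through the D10 and D12 libraries, against 9 of the lower, so the counts of runs are a description. How many runs would arise without any grouping was not tested. The run with the most members was the Zscan4 cluster on chromosome 7 (bases 10794242 to 11614112), with 9 tested genes and pseudogenes in a row. A run of 4 on chromosome 6 (bases 122505845 to 122630272) held Mfap5, Apobec1, Gdf3 and Dppa3. Several of the runs are families of near-identical copies, where reads may have been shared out among the members. The lower runs were Dusp6, Kitl and 3 neighbours on chromosome 10, and 4 copies of the small proline-rich Sprr2 genes on chromosome 3.

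Outside these clusters, the 15 highest genes included Zg16, a zymogen granule lectin of the gut, which was at 0.748 and 0.609 FPKM on D10 and at 77.7 and 72.6 FPKM on D12 (5.50 ± 0.09, adjusted p = 1.0e-12). Crxos, a homeobox gene next to Crx, was at 1.124 and 1.39 FPKM and then at 68.4 and 82.4 FPKM (5.08 ± 0.11). Calcoco2, the autophagy receptor NDP52, was at 0.431 and 0.773 FPKM and then at 38.4 and 37.3 FPKM (4.61 ± 0.12). Zg16 was listed at 0 in both riPSC libraries, whereas Crxos was at 18.5 and 17.6 FPKM and Calcoco2 at 18.8 and 18.7 FPKM there. The small RNA gene Gm27694 and BC051665 were listed at 0 on D10 and have no fold; the FPKM of genes as short as Gm27694 is unreliable. At the other end stood Egr1 and Notum, described with their pathways, and genes of other kinds. Igfbp1, a secreted IGF-binding protein of liver, was at 23.3 and 23.9 FPKM and then at 1.61 and 1.28 FPKM (-3.33 ± 0.18, adjusted p = 3.2e-08). Slc38a4, an amino acid transporter, was at 39.1 and 39.7 FPKM and then at 3.63 and 3.08 FPKM (-3.21 ± 0.14). The 2 days did not overlap in any of these genes.

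The plot of gene lists sets 15 of the 59 lists side by side. The counts and medians below are read against the shares of all tested genes called (6.02% higher, 4.62% lower) and the all-gene median of -0.05. With a pseudocount of 5, which shrinks differences of genes at low levels, several of the counts are smaller by more than 1.5 times, and these are given beside the lists.

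**Figure D2:**
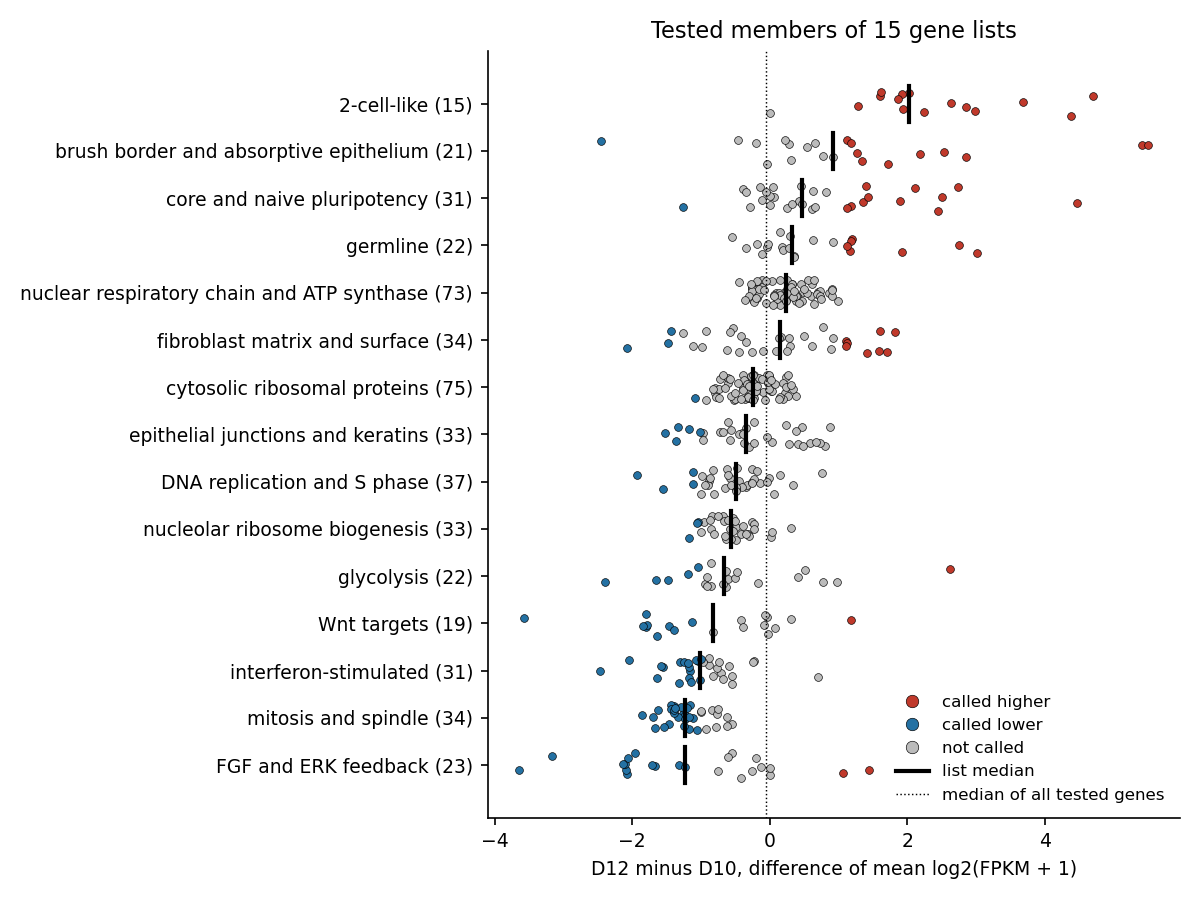
Difference between D12 and D10 of each tested member of 15 gene lists, as the difference of mean log2(FPKM + 1), with the number of tested members in brackets. Red points were called higher, blue points lower and grey points neither; the heavy bar is the median of the list and the dotted line the median of all tested genes, and the lowest median shown is -1.24, for FGF and ERK feedback genes. The median of 2.03 of the 2-cell-like genes is set by the filter on low values, which 12 of the 15 members passed only through the D10 and D12 libraries.

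Many targets and feedback inhibitors of ERK fell. Of 23 tested genes of FGF and ERK feedback, 12 fell and 2 rose, with a median of -1.24. Egr1, an immediate early transcription factor induced by ERK, was at 18.1 and 18.4 FPKM on D10 and at 0.558 and 0.521 FPKM on D12 (-3.65 ± 0.24, adjusted p = 1.8e-07). Dusp4, a phosphatase that inactivates nuclear ERK, was at 8.33 and 9.55 FPKM and then at 0 and 0.208 FPKM (-3.17 ± 0.17, adjusted p = 2.9e-08). Dusp6, the cytoplasmic ERK phosphatase, was at 5.58 and 5.98 FPKM and then at 0.443 and 0.717 FPKM (-2.11 ± 0.22, adjusted p = 1.3e-05). Every D12 library lay below both D10 libraries for each of the 3. Spry4, an inhibitor of receptor tyrosine kinase signalling, was at 3.24 and 3.16 FPKM on D10 and listed at 0 in both D12 libraries. The ETS factors Etv4 (-2.06 ± 0.10) and Etv5 (-2.13 ± 0.22) fell too, as did Spred1 (-1.96 ± 0.20) and Spred2 (-2.09 ± 0.26), which restrain the activation of RAF. Spry2 was at 14.6 and 14.5 FPKM and then at 10.15 and 9.07 FPKM, which was not called (adjusted p = 0.060).

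The rises in this list were those of Il17rd and Fgf10. Il17rd, a membrane antagonist of FGF receptors, was at 1.75 and 1.69 FPKM and then at 6.24 and 6.51 FPKM (1.44 ± 0.27). The ligand Fgf10 was at 10.9 FPKM in both D10 libraries and at 24.98 and 22.7 FPKM on D12 (1.06 ± 0.21), a call lost without D12 replicate 1 (1 member higher in place of 2). riPSC, kept with a MEK inhibitor, had low Egr1 (0.202 and 0.316 FPKM), but had Etv4 at 42.6 and 42.6 FPKM and Etv5 at 67.3 and 68.8 FPKM, far above both days. With a pseudocount of 5, 5 of the list were lower.

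Immediate early genes did not move as a block. Of 22 tested AP-1 and immediate early genes 4 fell, among them Fosb (34.5 and 39.8 FPKM to 9.05 and 9.96 FPKM; -1.86 ± 0.10) and the nuclear receptor Nr4a1 (10.0 and 10.9 FPKM to 1.20 and 1.85 FPKM; -2.19 ± 0.22), and 1 rose, Klf2. Jun was at 43.5 and 44.4 FPKM on D10 and at 40.4 and 40.04 FPKM on D12 (-0.12 ± 0.21). Junb was at 23.3 and 25.5 FPKM and then at 28.1 and 28.03 FPKM (0.20 ± 0.19). Fos was at 39.2 and 41.0 FPKM and then at 23.7 and 24.02 FPKM, a difference of -0.72 ± 0.42 that was not called (adjusted p = 0.21).

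Part of the Wnt target genes fell as well: of 19 tested, 9 fell, 1 rose and 9 were not called, Nkd1 (0.07) and Znrf3 (-0.03) among the last, with a median of -0.82. Notum, a secreted enzyme that strips the lipid from Wnt proteins, was at 34.4 and 37.7 FPKM on D10 and at 2.02 and 2.17 FPKM on D12 (-3.58 ± 0.24, adjusted p = 2.3e-07). Axin2, the standard feedback target of beta-catenin, was at 26.6 and 27.96 FPKM and then at 7.30 and 6.86 FPKM (-1.81 ± 0.31). Rnf43, a ubiquitin ligase that removes Wnt receptors, was at 7.37 and 8.53 FPKM and then at 1.95 and 1.28 FPKM (-1.78 ± 0.16). None of the 3 overlapped between days. Sp5 (-1.65 ± 0.22), Ccnd1, which encodes cyclin D1 (-1.84 ± 0.10), Apcdd1 (-1.80 ± 0.35) and the receptor Lgr5 (-1.39 ± 0.27) fell likewise. The call of Tnfrsf19 was lost without D12 replicate 2, and that of Tcf7 without any 1 of the 4 libraries. Dkk1, a secreted inhibitor of Wnt coreceptors, went the other way, from 7.50 and 7.78 FPKM to 18.5 and 18.6 FPKM (1.18 ± 0.24). With a pseudocount of 5, 5 of the list were lower.

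Myc, the growth-promoting transcription factor that both pathways feed, was at 18.4 and 18.5 FPKM on D10 and at 1.81 and 2.25 FPKM on D12 (-2.69 ± 0.21, adjusted p = 1.2e-06), close to the 1.09 and 1.03 FPKM of riPSC. Mycl fell (-1.42 ± 0.23) from a low level of 2.23 and 1.83 FPKM. Mycn was at 6.41 and 6.32 FPKM and then at 5.50 and 5.33 FPKM and was not called (-0.20 ± 0.20). Mxd4, which encodes a partner of MAX that opposes MYC, rose from 9.52 and 10.6 FPKM to 23.2 and 23.01 FPKM (1.13 ± 0.23). Of the other signalling lists, 3 of 24 BMP genes, 2 of 19 TGF-beta genes and 1 of 14 LIF and STAT3 genes fell, against 1, 2 and 1 that rose. Among retinoid genes Aldh1a1, an enzyme of retinoic acid synthesis, rose from 5.54 and 5.15 FPKM to 43.0 and 43.8 FPKM (2.81 ± 0.13), and the receptor Rarb rose by less (1.51 ± 0.25). In all, 3 of 20 retinoid genes rose and 1 fell.

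**Figure D3:**
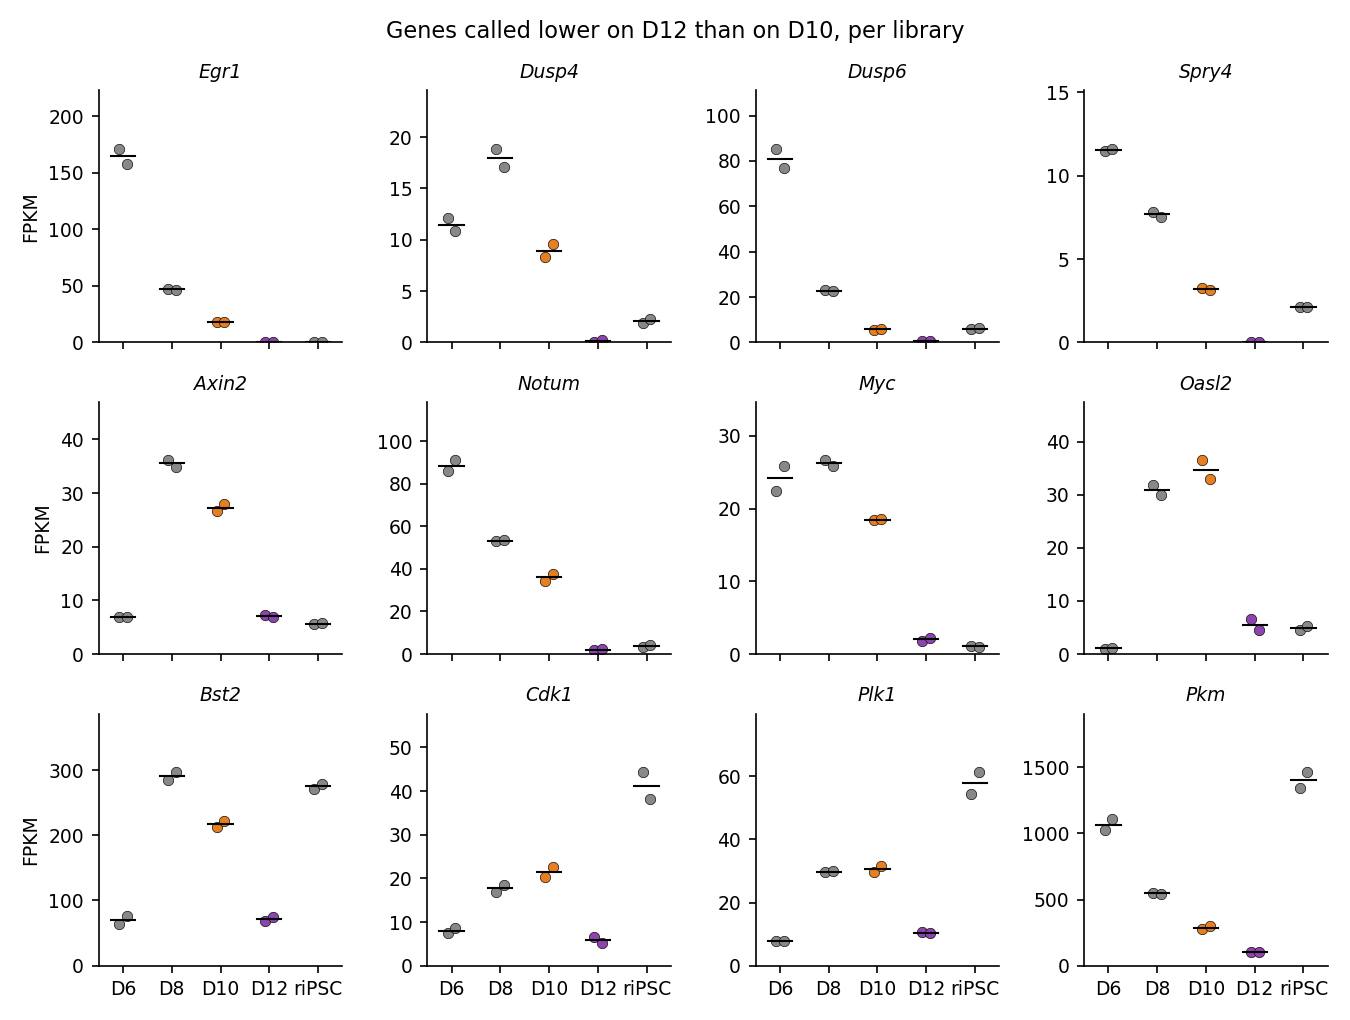
FPKM of 12 genes called lower on D12 than on D10, in each library of D6, D8, D10, D12 and riPSC (points; 2 libraries a group) with the group mean (bars) on axes that start at 0. Orange marks D10 and purple D12; Egr1, Dusp6 and Spry4 were lower at each step from D6 to D12, Oasl2 and Cdk1 were higher on D10 than on D6, and Cdk1, Plk1 and Pkm were at their highest in riPSC.

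Many interferon-stimulated genes fell. Of 31 tested, 17 fell and none rose by limma, and 30 had a difference below 0, with a median of -1.01; at an unadjusted p under 0.05, 28 were lower and 1 higher. The exception was Xaf1, at 25.6 and 27.5 FPKM on D10 and at 44.7 and 42.9 FPKM on D12 (0.70 ± 0.13, not called). Ifih1 and Bst2 are shown by their promoters because both hold the core of the interferon-stimulated response element. Ifih1, chosen after its values were seen, encodes the RNA sensor MDA5, and Bst2 encodes tetherin, which holds budding virus at the cell surface. The windows of 300 bases span the start of the gene and most lies upstream of it; they are given 5′ to 3′ on the strand of the gene, from RefSeq (GRCm38.p6), Ifih1 at chr2:62646206-62646505 and Bst2 at chr8:71537423-71537722, both on the minus strand; capitals mark matches to GAAANNGAA on either strand, 2 in each window, those of Bst2 overlapping.
Ifih1: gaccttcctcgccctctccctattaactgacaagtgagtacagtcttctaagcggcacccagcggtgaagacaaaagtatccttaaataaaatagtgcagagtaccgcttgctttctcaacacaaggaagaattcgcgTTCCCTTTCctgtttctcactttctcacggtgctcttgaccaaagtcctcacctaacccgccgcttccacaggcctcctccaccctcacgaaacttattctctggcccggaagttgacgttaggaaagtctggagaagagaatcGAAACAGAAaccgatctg
Bst2: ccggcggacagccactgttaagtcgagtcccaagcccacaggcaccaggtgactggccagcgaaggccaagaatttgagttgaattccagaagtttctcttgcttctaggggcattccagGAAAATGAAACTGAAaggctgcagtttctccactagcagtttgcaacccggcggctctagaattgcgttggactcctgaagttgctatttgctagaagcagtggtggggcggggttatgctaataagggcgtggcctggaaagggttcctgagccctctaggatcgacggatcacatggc
The letters GAAANNGAA occur in 8.56% of 32851 promoter windows of this length, in 15 of the 22 tested interferon-stimulated genes with a window and in 6 of the 10 of these that fell. A match is a description of the letters and not of binding.

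Ifih1 was at 3.28 and 3.82 FPKM on D10 and at 0.803 and 0.876 FPKM on D12 (-1.30 ± 0.10, adjusted p = 5.8e-07). Bst2 was at 213 and 222 FPKM and then at 69.2 and 74.5 FPKM (-1.58 ± 0.17, adjusted p = 1.9e-05). Oasl2, an oligoadenylate synthetase-like antiviral protein, was at 36.5 and 33.0 FPKM and then at 6.52 and 4.52 FPKM (-2.47 ± 0.24, adjusted p = 7.5e-06). All 3 were separate between the days. Usp18, the protease that removes ISG15 and dampens the receptor, fell (-2.04 ± 0.14), and so did Irf7, the amplifier of the response, from 10.4 and 10.07 FPKM to 3.36 and 3.64 FPKM (-1.32 ± 0.25). Isg15 itself was at 10.96 and 11.2 FPKM on D10 and at 8.62 and 10.11 FPKM on D12 and was not called. In riPSC Bst2 stood at 271 and 279 FPKM, above both days, whereas Ifih1 was at 0.0623 and 0.102 FPKM, below both. Of 17 genes of MHC class I presentation 1 fell, H2-K1 (90.4 and 89.7 FPKM to 34.6 and 40.05 FPKM; -1.25 ± 0.20). The class II gene H2-Eb1, at 19.3 and 20.9 FPKM and then at 1.44 and 1.67 FPKM, was among the 15 largest falls (-3.05 ± 0.18). With a pseudocount of 5, 4 interferon-stimulated genes were lower, and with a filter at an FPKM of 5, 11 were.

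Most of the mitotic genes fell. All 34 tested genes of mitosis and the spindle had a difference below 0 and 24 fell, with a median of -1.23; their summed level went from 1001 and 1024 FPKM to 438 and 424 FPKM. Cdk1 and Aurka are shown by their promoters because late cell cycle genes are known to carry a cell cycle genes homology region (CHR) with the core TTTGAA and CCAAT boxes. The windows are built as above, Cdk1 at chr10:69352863-69353162 and Aurka at chr2:172370521-172370820, both on the minus strand; capitals mark TTTGAA and CCAAT on either strand, and no match of one overlaps the other.
Cdk1: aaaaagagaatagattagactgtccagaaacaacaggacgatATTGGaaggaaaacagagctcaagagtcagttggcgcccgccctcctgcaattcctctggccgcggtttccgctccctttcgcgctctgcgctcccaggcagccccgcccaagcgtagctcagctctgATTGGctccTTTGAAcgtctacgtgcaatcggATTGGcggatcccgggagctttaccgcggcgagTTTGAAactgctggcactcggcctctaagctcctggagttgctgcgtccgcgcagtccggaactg
Aurka: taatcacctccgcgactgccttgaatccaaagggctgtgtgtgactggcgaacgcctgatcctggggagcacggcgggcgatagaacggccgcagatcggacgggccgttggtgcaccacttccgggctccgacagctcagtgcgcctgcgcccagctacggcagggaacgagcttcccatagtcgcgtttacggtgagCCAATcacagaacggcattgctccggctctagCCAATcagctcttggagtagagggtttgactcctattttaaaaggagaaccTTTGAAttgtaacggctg
TTTGAA occurs in 17.9% of all 32851 windows and in 21 of the 28 tested mitotic genes with a window, 18 of which are among the 21 that fell. CCAAT occurs in 37.4% of all windows and in 23 of the 28. For comparison, TTTGAA was found in 4 of the 31 DNA replication and S phase genes with a window, and CCAAT in 18 of these 31 (58.1%).

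Cdk1, the kinase that drives entry into mitosis, was at 20.2 and 22.6 FPKM on D10 and at 6.65 and 5.25 FPKM on D12 (-1.69 ± 0.19, adjusted p = 2.1e-05). Aurka, a kinase of the spindle poles, was at 31.5 and 32.6 FPKM and then at 10.9 and 9.85 FPKM (-1.54 ± 0.17, adjusted p = 2.2e-05). Plk1, a kinase of mitotic entry and exit, was at 29.7 and 31.6 FPKM and then at 10.5 and 10.3 FPKM (-1.47 ± 0.22). The 2 D12 libraries were close to each other in each of these and did not overlap with D10. Nusap1 (-1.86 ± 0.23), Bub1 (-1.66 ± 0.23), Prc1 (-1.63 ± 0.29), Top2a (-1.44 ± 0.17) and the proliferation marker Mki67 (-1.12 ± 0.10) fell alongside. Genes of DNA replication moved less: 4 of 37 fell (Cdc6, -1.94 ± 0.20; Mcm10, -1.56 ± 0.17; Rrm2; Mcm6), none rose by limma (1 was higher and 24 lower at an unadjusted p under 0.05), and the median was -0.49. With quantile normalization 9 of them were lower, and with a pseudocount of 0.1, 8. In riPSC Cdk1 was at 44.4 and 38.1 FPKM and Aurka at 57.0 and 64.0 FPKM, above both days.

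Of 7 inhibitors of cyclin-dependent kinases 3 rose and none fell by limma (4 higher and 0 lower at an unadjusted p under 0.05). Cdkn1c, which encodes p57, was at 9.45 and 9.25 FPKM on D10 and at 35.6 and 41.0 FPKM on D12 (1.92 ± 0.13, adjusted p = 2.8e-07). Cdkn2b, which encodes p15, was at 5.79 and 6.27 FPKM and then at 14.6 and 16.9 FPKM (1.25 ± 0.16). Cdkn2a, the gene of p16 and p19ARF, was at 15.7 and 16.7 FPKM and then at 39.7 and 37.1 FPKM (1.20 ± 0.14). The p53 target Cdkn1a, the gene of p21, was at 66.8 and 72.5 FPKM and then at 56.6 and 59.9 FPKM and was not called (-0.25 ± 0.24). Of 29 p53 targets 2 were higher and 1 lower; without any 1 of the 4 libraries 1 was higher.

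Growth and glycolytic genes were lower in part. Of 33 nucleolar genes of ribosome biogenesis 3 fell, with a median of -0.57, and 30 had a difference below 0; without D10 replicate 1, 5 were lower, and the scalings tried gave between 1 (length-weighted nuclear share) and 8 (quantile normalization). Of the 75 ribosomal protein genes 1 fell (Rpsa, -1.09 ± 0.21). Of 22 glycolytic genes 5 fell and 1 rose, with a median of -0.66. Pkm, pyruvate kinase, was at 274 and 300 FPKM on D10 and at 101 and 103 FPKM on D12 (-1.48 ± 0.10, adjusted p = 2.8e-07). Ldhb, a lactate dehydrogenase subunit, was at 227 and 226 FPKM and then at 71.8 and 70.8 FPKM (-1.65 ± 0.11). Slc16a3, the lactate exporter MCT4, was at 10.4 and 9.03 FPKM and then at 1.22 and 0.848 FPKM (-2.40 ± 0.16). The D12 values were below every D10 value in all 3, and all 3 were higher in riPSC than on D12, Pkm at 1341 and 1465 FPKM. Pfkm, the muscle form of phosphofructokinase, rose instead from 5.13 and 5.23 FPKM to 35.3 and 38.8 FPKM (2.62 ± 0.12). Gapdh was at 70.0 and 96.9 FPKM and then at 118 and 102 FPKM and was not called. The serine pathway fell at its entry, Phgdh from 44.8 and 47.5 FPKM to 10.8 and 11.5 FPKM (-1.96 ± 0.34) and Psat1 from 29.4 and 29.9 FPKM to 9.53 and 10.9 FPKM (-1.45 ± 0.23). The glycine decarboxylase Gldc (-2.05 ± 0.11) and the threonine dehydrogenase Tdh (-1.15 ± 0.10), both abundant in mouse embryonic stem cells, fell too; 4 of the 20 genes of this list were lower and 1 higher.

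Pluripotency genes rose in part, and Pou5f1, Zfp42 and Nr5a2 stayed below the riPSC level. Of 31 tested core and naive pluripotency genes 11 rose (6.02% of all tested genes did) and 1 fell, with a median of 0.46. Pou5f1, which encodes the core factor OCT4, was at 121 and 128 FPKM on D10 and at 528 and 558 FPKM on D12 (2.11 ± 0.09, adjusted p = 4.3e-09), against 910 and 970 FPKM in riPSC. Zfp42, the naive marker REX1, was at 3.17 and 3.00 FPKM and then at 23.7 and 20.8 FPKM (2.50 ± 0.13), against 145 and 148 FPKM in riPSC. Nr5a2, a nuclear receptor that binds the Pou5f1 gene, was at 0.0541 and 0.142 FPKM and then at 6.77 and 5.88 FPKM (2.74 ± 0.13). In all 3 both D12 libraries lay above both D10 libraries and below both riPSC libraries. Gdf3, a TGF-beta family ligand (2.45 ± 0.11), Klf2 (1.90 ± 0.38) and Tfcp2l1 (1.13 ± 0.10), factors of the naive network, rose as well, as did Dppa5a (1.43 ± 0.13), Dppa4 (1.36 ± 0.13) and Fbxo15 (1.40 ± 0.10). Dppa3, a maternal protein that protects DNA from demethylation and hinders maintenance methylation, went from 0.278 and 0.536 FPKM to 31.3 and 28.7 FPKM (4.47 ± 0.10, adjusted p = 2.4e-11), above the 23.3 and 23.7 FPKM of riPSC.

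Nanog, Sox2 and Esrrb had not reached the level of riPSC. Nanog was at 0.160 and 0.280 FPKM on D10 and at 1.76 FPKM in both D12 libraries (1.18 ± 0.09, adjusted p = 8.5e-07), against 273 and 275 FPKM in riPSC. Sox2 was at 1.94 and 2.38 FPKM and then at 3.80 and 3.86 FPKM and was not called at 2-fold (0.62 ± 0.19, adjusted p = 0.024), against 234 and 257 FPKM in riPSC. Esrrb was at 39.97 and 45.5 FPKM and then at 41.3 and 44.3 FPKM, overlapping between the days, with 249 and 214 FPKM in riPSC. Klf4 (69.7 and 76.1 FPKM to 88.5 and 85.6 FPKM), Sall4 (17.5 and 18.02 FPKM to 14.97 and 13.9 FPKM) and Lin28a (14.96 and 14.3 FPKM to 13.6 and 12.7 FPKM) were not called. The 1 fall was Utf1 (-1.27 ± 0.18), a call lost without D10 replicate 2.

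Genes of the 2-cell-like state came up from almost nothing. The list matched 37 genes, of which 15 passed the filter on low values, 12 of them only through the D10 and D12 libraries, and 5 were listed at 0 in all 4 libraries, so counts over the list are no measure of it. Summed over all 37, the level was 1.45 and 1.81 FPKM on D10 and 143 and 135 FPKM on D12. Pramel7, a leucine-rich repeat protein that opposes DNA methylation, made up much of this, at 1.26 and 1.45 FPKM and then at 61.2 and 59.5 FPKM (4.70 ± 0.12, adjusted p = 7.8e-11). Zscan4f, of a family of telomere-linked zinc finger proteins that mark the state, was at 0 and 0.0259 FPKM and then at 12.4 and 11.7 FPKM (3.69 ± 0.11). Zscan4c was listed at 0 in both D10 libraries and was at 6.199 and 6.27 FPKM on D12. The Zscan4, Tcstv3, Usp17l and Gm4340 families are near-identical copies whose reads the counting may have split, so single members are uncertain. Zscan4f was at 1.33 and 1.86 FPKM in riPSC and Pramel7 at 0.103 and 0.188 FPKM, each below D12.

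Germline genes and DNA methylation genes rose in a subset. Of 22 tested germline genes 7 rose and none fell by limma, and 15 were not called; at an unadjusted p under 0.05, 13 were higher and 1 lower. With a pseudocount of 5, 2 were higher. Of the 21 that passed the filter without the D10 and D12 libraries, 6 rose. Dazl, an RNA-binding protein of germ cells, was at 1.38 and 1.00 FPKM on D10 and at 19.05 and 14.6 FPKM on D12 (3.02 ± 0.13, adjusted p = 4.2e-09). Rpl10l, a testis copy of a ribosomal protein gene, was at 0.0482 and 0 FPKM and then at 6.58 and 5.30 FPKM (2.75 ± 0.10). Dnmt3l, the cofactor of the de novo methyltransferases, was at 2.54 and 2.12 FPKM and then at 26.2 and 25.6 FPKM (3.02 ± 0.15, adjusted p = 2.1e-08), above the 19.11 and 22.2 FPKM of riPSC. Each of these was separate between days, and Dazl too was higher on D12 than in riPSC (5.90 and 5.61 FPKM). Tet2, which oxidises methylated cytosine, rose from 4.85 and 4.44 FPKM to 18.7 and 16.5 FPKM (1.72 ± 0.22), and Apobec1 rose (1.65 ± 0.35). None of the DNA methyltransferases was called: Dnmt3b was at 7.56 and 7.75 FPKM and then at 3.77 and 3.53 FPKM (-0.90 ± 0.10, not called at 2-fold), Dnmt1 at 25.3 and 26.3 FPKM and then at 15.8 and 16.1 FPKM (-0.66 ± 0.21), and Dnmt3a at 7.09 and 5.86 FPKM and then at 9.29 and 9.10 FPKM (0.45 ± 0.23). Of the 19 genes of this list 4 were higher, Dppa3 among them, and none lower by limma (6 higher and 6 lower at an unadjusted p under 0.05).

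**Figure D4:**
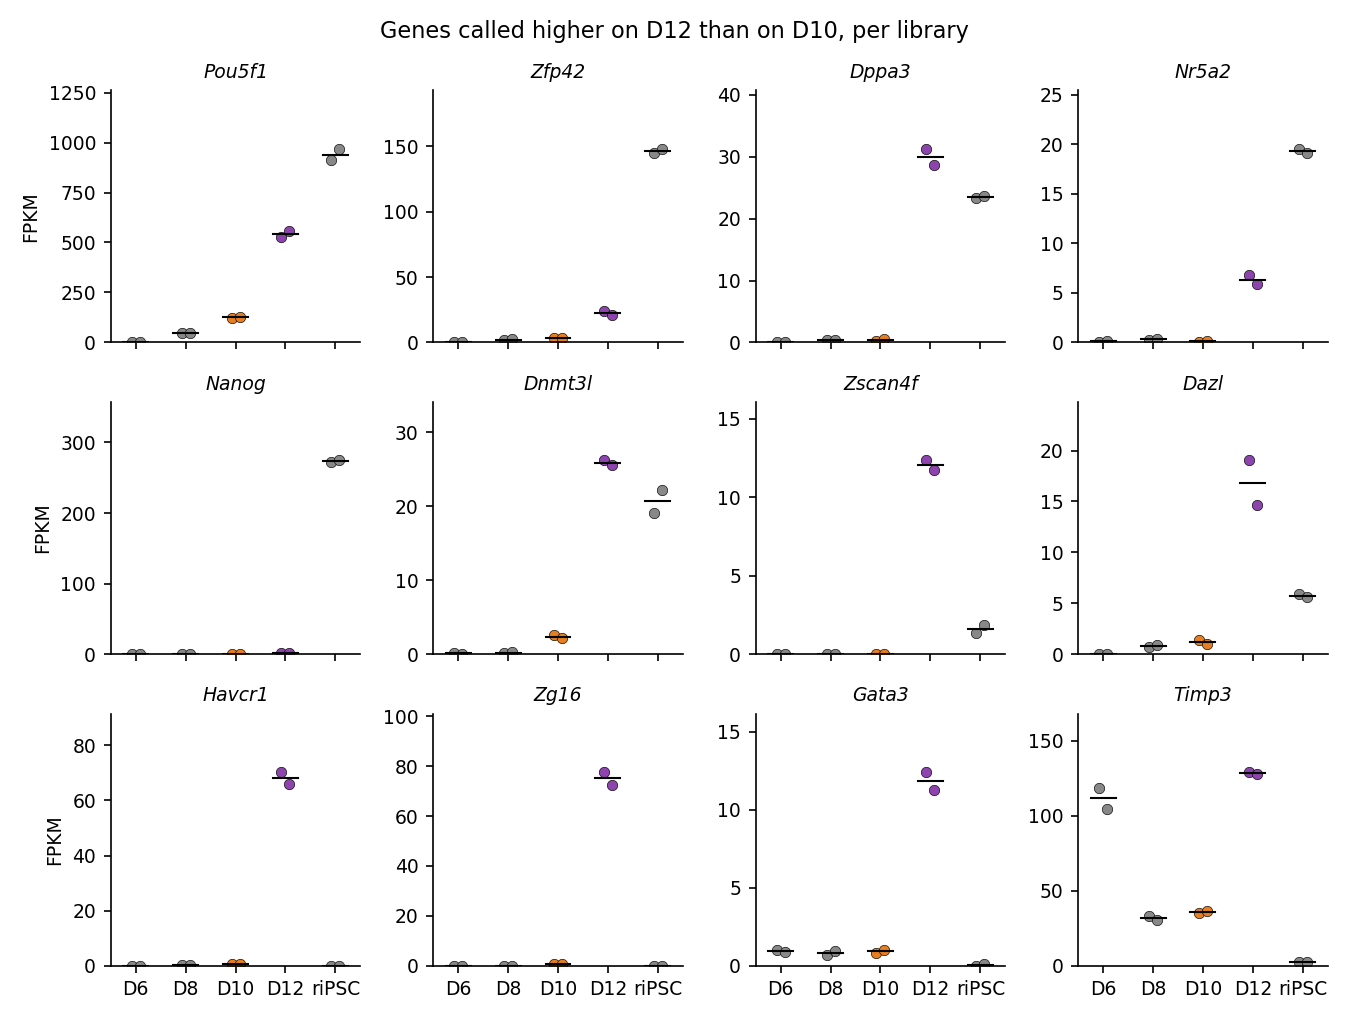
FPKM of 12 genes called higher on D12 than on D10, in each library of D6, D8, D10, D12 and riPSC (points; 2 libraries a group) with the group mean (bars) on axes that start at 0. Pou5f1 and Zfp42 lay between D10 and riPSC on D12; Dppa3, Dnmt3l, Zscan4f, Dazl, Havcr1, Zg16 and Gata3 were higher on D12 than in riPSC, and Nanog on D12 was barely above 0 on the scale set by riPSC.

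Regulators of extraembryonic endoderm were still high on D12. Gata4 was at 111 and 119 FPKM on D10 and at 122 and 119 FPKM on D12 (0.07 ± 0.12), against 0.999 and 1.16 FPKM in riPSC. Sox17 was at 136 and 112 FPKM and then at 92.2 and 121 FPKM, overlapping between the days, and neither gene was called. Of 30 tested genes of this list 8 rose and 3 fell (none fell with a pseudocount of 5). The forkhead factor Foxq1 rose from 17.6 and 19.3 FPKM to 56.7 and 57.8 FPKM (1.59 ± 0.12), and so did some basement membrane genes, Lamb1 from 290 and 298 FPKM to 665 and 658 FPKM (1.17 ± 0.16), Sparc from 1204 and 1237 FPKM to 2651 and 2635 FPKM (1.11 ± 0.13) and Nid1 from 18.04 and 19.3 FPKM to 58.7 and 58.5 FPKM (1.60 ± 0.33), while Col4a1 (0.36), Col4a2 (0.25) and Lama1 (0.89) were not called. Genes of visceral endoderm divided: Apoa1 (1.54 and 1.67 FPKM to 11.2 and 15.2 FPKM; 2.44 ± 0.17) and Apoa4 (3.12 and 3.60 FPKM to 19.3 and 18.6 FPKM; 2.19 ± 0.11), apolipoproteins of lipid export, rose, whereas 5 of 21 fell, among them the protease Dpp4 (25.4 and 25.6 FPKM to 2.46 and 2.62 FPKM; -2.91 ± 0.14).

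Part of the genes of the absorptive epithelium of gut and kidney rose. Of 21 tested, 10 rose and 1 fell, 7 of the 21 having passed the filter only through the D10 and D12 libraries; of the 14 that passed without them 4 rose and 1 fell. With a pseudocount of 5, or a filter at an FPKM of 5, 6 were higher. Beside Zg16 and Havcr1, the phosphate transporter Slc34a2 rose from 1.74 and 1.45 FPKM to 18.4 and 17.2 FPKM (2.86 ± 0.09), the fatty acid-binding Fabp2 from 0.311 and 0.680 FPKM to 6.99 and 8.27 FPKM (2.54 ± 0.12) and the membrane protease Mme from 10.9 and 10.8 FPKM to 54.2 and 51.1 FPKM (2.18 ± 0.28). Slc34a2, Fabp2 and Zg16 were listed at 0 in riPSC. The aminopeptidase Anpep fell from 74.0 and 70.5 FPKM to 11.2 and 13.7 FPKM (-2.45 ± 0.13). Aqp8, a water channel that was already high, was at 394 and 423 FPKM on D10 and at 503 and 494 FPKM on D12 and was not called. Of 33 general epithelial genes 5 were lower and none higher by limma (15 and 9 at an unadjusted p under 0.05), and none was lower with a pseudocount of 5: Cdh1, E-cadherin, was at 120 and 128 FPKM and then at 127 and 127 FPKM, Epcam at 213 and 225 FPKM and then at 109 and 114 FPKM (-0.97 ± 0.11, not called), and the splicing factor Esrp1 fell from 7.63 and 7.85 FPKM to 2.28 and 2.52 FPKM (-1.36 ± 0.09).

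Of 18 trophoblast genes 5 rose (2 with a pseudocount of 5) and 1 fell, while 10 had a difference below 0 and the median was -0.13. The summed level of the list was 330.0 and 332 FPKM on D10 and 284 and 279 FPKM on D12. The gene that fell was Prl2c2 (-1.21), a placental hormone of the prolactin family. Gata3 was at 0.819 and 1.03 FPKM on D10 and at 12.4 and 11.2 FPKM on D12 (2.74 ± 0.11, adjusted p = 2.2e-09), against 0 and 0.0896 FPKM in riPSC. Tead4, the partner of YAP in the outer cells of the embryo, was at 6.09 and 6.98 FPKM and then at 34.9 and 33.4 FPKM (2.22 ± 0.40). Eomes, a T-box factor of trophoblast and endoderm, was at 1.96 and 1.93 FPKM and then at 8.39 and 7.76 FPKM (1.62 ± 0.14). The groups did not overlap in any of them.

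Fibroblast genes moved in both directions. Of 34 tested, 8 rose and 3 fell, and the median was 0.15; with a pseudocount of 5, 5 were higher, and with the 4 libraries alone in the fit 5 were lower. Of the collagens in the list Col1a1, Col1a2, Col3a1 and Col5a1 rose, and Col5a2, Col6a1, Col6a2, Col6a3 (-0.35) and Col12a1 (-0.53) were not called. Col3a1 was at 75.0 and 77.6 FPKM on D10 and at 248 and 255 FPKM on D12 (1.71 ± 0.24), and Col1a1 at 94.8 and 99.6 FPKM and then at 207 and 215 FPKM (1.11 ± 0.22). Timp3, an inhibitor of matrix metalloproteinases, was at 35.4 and 36.3 FPKM and then at 129 and 128 FPKM (1.82 ± 0.24). The members that fell were Thbs1, a matrix glycoprotein (-1.44), and a pair of surface proteins, Cd44, the hyaluronan receptor, from 21.2 and 20.2 FPKM to 4.15 and 4.13 FPKM (-2.08 ± 0.29) and Thy1 from 19.8 and 22.1 FPKM to 6.77 and 7.02 FPKM (-1.47 ± 0.15). The surface receptors Pdgfra (-0.42) and Pdgfrb (0.26) were not called. Myl9, a regulatory light chain of contractile myosin, fell from 66.8 and 73.4 FPKM to 7.69 and 6.995 FPKM (-3.09 ± 0.14), while Ccn2, a matricellular target of YAP and TGF-beta, rose from 8.32 and 7.29 FPKM to 52.3 and 51.9 FPKM (2.60 ± 0.26).

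Markers of other cell types summed to at most 102 FPKM per list in a library, with mixed calls. Neural markers (8 tested) summed to 5.84 and 6.55 FPKM on D10 and 7.83 and 8.74 FPKM on D12, and striated muscle markers (13 tested) to 5.52 and 5.25 FPKM and then 13.0 and 13.98 FPKM. Myeloid markers summed to 18.1 and 19.17 FPKM and then 23.7 and 24.97 FPKM, with 5 of 16 listed at 0 in all 4 libraries; 1 of 12 tested rose, the transcription factor Spi1, from 0.700 and 0.865 FPKM to 6.84 and 7.55 FPKM (2.201 ± 0.13), and 1 fell. Endothelial markers summed to 89.6 and 93.0 FPKM and then 66.0 and 62.9 FPKM, and adipocyte markers to 66.1 and 63.9 FPKM and then 102 and 98.6 FPKM. Of 10 stratified epithelium markers 4 fell, among them Krt5 from 2.98 and 3.12 FPKM to 0.119 and 0 FPKM (-1.94 ± 0.15). The summed level of this list was 53.6 and 57.4 FPKM on D10 and 60.8 and 57.2 FPKM on D12. Sfn (0.96) and Krt13 (0.94) had differences above 0 and were not called. Of 9 hepatocyte and kidney tubule markers 2 rose and 2 fell. Just 5 of the 9 passed the filter without the D10 and D12 libraries, and of these none rose and 2 fell. Of 7 primitive streak markers Wnt3 (2.01 ± 0.12) and Eomes rose. Of the 6 that passed without those libraries 1 rose. What part these cell types have in the other results was not tested.

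Genes of mitochondrial DNA rose unevenly. The mitochondrial genome encodes subunits of the respiratory chain, a pair of ribosomal RNAs and the transfer RNAs (tRNAs) that punctuate its long transcripts. Of 33 tested mitochondrial genes 20 were higher on D12 and none was called lower by limma, no difference being below 0: 15 of 21 tRNA genes, both ribosomal RNA genes and 3 of 10 protein genes. The largest differences were those of tRNA genes, 5 of which lie next to each other. Among these neighbours mt-Tw was at 10.4 and 12.23 FPKM on D10 and at 325 and 326 FPKM on D12 (4.73 ± 0.32, adjusted p = 2.8e-07), and mt-Ta was at 30.8 and 38.9 FPKM and then at 754 and 716 FPKM (4.37 ± 0.28). Of the rest of the group mt-Tn differed by 3.98, mt-Tc by 3.64 and mt-Ty by 3.22 on the log2 scale. Away from that group, mt-Tl2 differed by 3.87, mt-Tt by 3.68 and mt-Th by 3.49. The ribosomal RNA mt-Rnr2 was at 280 and 296 FPKM and then at 1150 and 1029 FPKM (1.92 ± 0.22). Among protein genes mt-Nd6 was at 726 and 669 FPKM and then at 3433 and 3245 FPKM (2.26 ± 0.36), whereas mt-Co1 was at 12984 and 12557 FPKM and then at 21319 and 20532 FPKM, which was separate between the days but not called (0.71 ± 0.50). The calls of mt-Nd5 and mt-Nd3 were lost without any 1 of the 4 libraries. Whether the counting used strand is not stated, so mt-Nd6 and the tRNA genes of its strand cannot be separated from antisense transcripts, and tRNA genes are shorter than the reads.

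**Figure D5:**
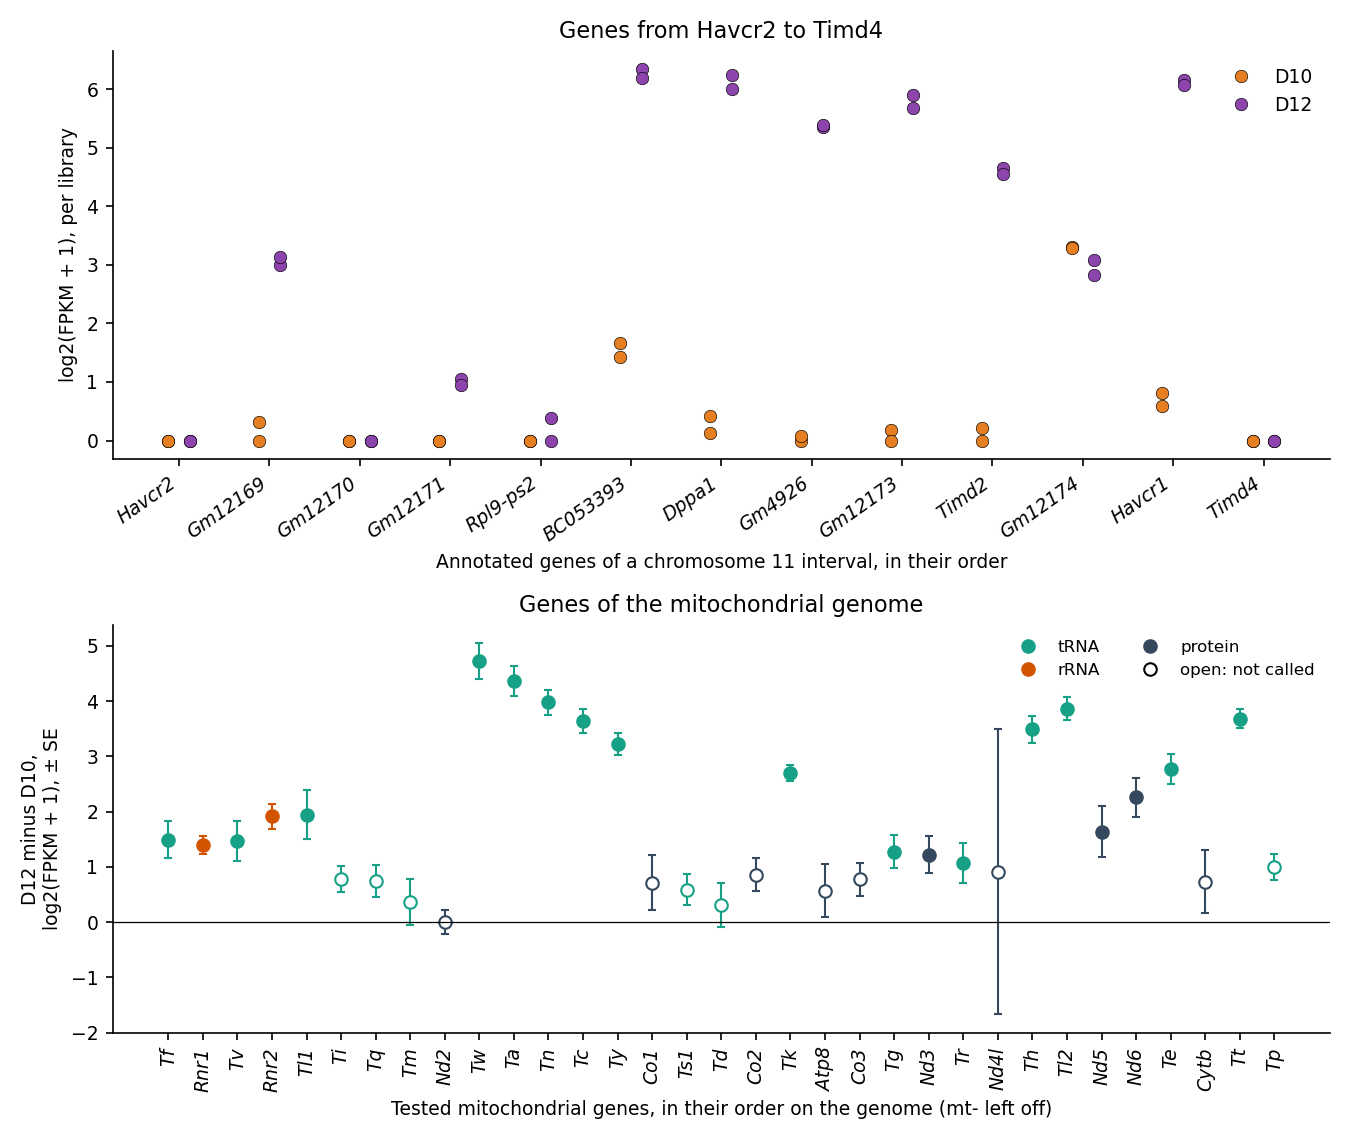
Top: log2(FPKM + 1) of the 13 annotated genes from Havcr2 to Timd4 on chromosome 11, in their order, in each D10 (orange) and D12 (purple) library; 7 genes rose and Havcr2 and Timd4 at the ends were at 0. Bottom: difference between D12 and D10 of the 33 tested mitochondrial genes in their order, ± SE from limma; filled points were called higher, and the 5 adjacent tRNA genes from mt-Tw to mt-Ty had differences between 4.73 and 3.22.

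The values of some mitochondrial protein genes are not usable as levels. mt-Nd4l alone took 43.6% and 42.9% of the FPKM sum on D10 and 52.99% and 52.9% on D12, while mt-Nd4, which it overlaps by 7 bases, was listed at 0 in all 4 libraries, and mt-Atp6, which overlaps mt-Atp8 by 43 bases, was likewise at 0. Without mt-Nd4l and mt-Atp8, the mitochondrial share of the remaining FPKM sum was 5.38% and 5.24% on D10 and 8.63% and 8.66% on D12. None of the 73 nuclear genes of the respiratory chain and ATP synthase was called by limma; at an unadjusted p under 0.05, 30 were higher and 2 lower, their median was 0.24, and 4 were called higher after division by the length-weighted nuclear share and 3 without D12 replicate 1. Of 74 genes of the mitochondrial ribosome and its expression machinery 1 was lower.

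Stress, lysosomal and imprinted genes moved in part. Of 26 genes of the integrated stress response 5 rose and 4 fell; Nupr1, a stress-induced chromatin protein, rose from 6.94 and 6.53 FPKM to 39.9 and 39.4 FPKM (2.39 ± 0.16). Among antioxidant genes Gpx3 rose from 182 and 179 FPKM to 496 and 504 FPKM (1.46 ± 0.12) and Gstm1 fell from 55.3 and 53.2 FPKM to 11.6 and 14.2 FPKM (-2.00 ± 0.20). Of 49 lysosome and autophagy genes 5 rose and 1 fell (3 rose without D10 replicate 1 or D12 replicate 2), among them Atg14, a subunit of the autophagy lipid kinase, from 7.48 and 8.76 FPKM to 33.1 and 33.5 FPKM (1.91 ± 0.23), and Ctsl, cathepsin L, from 535 and 571 FPKM to 1251 and 1208 FPKM (1.15 ± 0.25). Of 27 imprinted genes 2 rose and 4 fell. Plagl1, a zinc finger gene expressed from the paternal allele, fell from 14.4 and 14.7 FPKM to 1.96 and 2.15 FPKM (-2.35 ± 0.20), and H19, the noncoding RNA of the Igf2 locus, fell from 1278 and 1309 FPKM to 546 and 567 FPKM (-1.22 ± 0.20). Meg3, a maternal noncoding RNA, rose from 67.4 and 65.6 FPKM to 212 and 219 FPKM (1.68 ± 0.31). Among histone genes the linker histones Hist1h1c (2.00 ± 0.17) and H1f0 (1.27 ± 0.10) rose, and H2afy2, a macroH2A gene, fell from 15.9 and 14.3 FPKM to 2.83 and 2.46 FPKM (-2.14 ± 0.19).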

How the data were processed

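RNA was sequenced from 18 libraries of 9 groups, 2 each. Reads were trimmed with fastp 0.20.1, aligned with HISAT2 2.2.1 to mm10 and quantified with StringTie 2.0, per the submitters' processing notes, which name tools and build but not their order or settings. The deposited values are FPKM per gene, which the authors had normalized to gene length and library total. The annotation release, strand setting and depth are not given in the sources used here. Symbols, positions and biotypes came from GENCODE vM21 (GRCm38), which named 55141 of 55401 gene IDs. Genes on the sex chromosomes or without a match were left out.

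The test used limma 3.58.1 (R 4.3.3) on log2(FPKM + 1), for genes that reached an FPKM of 1 in 2 or more of the 18 libraries. All 9 groups were fitted together, which left 9 residual degrees of freedom, and p-values were adjusted by Benjamini-Hochberg. The procedure was tested on simulated data. Levels are single-library FPKM; errors are limma SEs of the log2 fold change, and n = 2 in each group. The text names from the 15 largest called changes in each direction (mean FPKM of at least 10), from 21 fixed genes and from 59 lists up to 6 called members each, members given as not called, and mitochondrial genes; 66 more were added after their values were seen. The members and lists were chosen with earlier results of these data known. Promoters are RefSeq windows of 300 bases. In all 18 alternatives were tried.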

Additional observations from a re-analysis of the deposited data

How the results depend on the processing

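The pseudocount and the fold requirement set how many genes were called, and no gene called by the rule used had the opposite sign under any of the 18 alternatives. Several of these could not turn a sign. Changes to the filter, the fold requirement, the other groups in the fit, the replicate block or the estimate of the spread leave each gene's difference as it was. A pseudocount of 0.1 gave 2595 calls, 1301 of them lower. A pseudocount of 5 gave 586, with 400 higher and 186 lower, of which 583 were among the 1684. Without the fold requirement there were 5572, with 2622 higher and 2950 lower. Leaving out 1 library gave between 1599 and 1686 calls, between 895 and 965 higher and between 670 and 744 lower. The differences between replicates 1 and 2 on D10 and on D12 correlated at 0.0764 across genes. With 1 such difference per day, this cannot show whether same-numbered libraries were paired. The fit with the replicate block gave 1681 calls, 951 higher and 730 lower. Among genes named as not called, the sign turned for Esrrb (-0.11 with quantile normalization, and between -0.0857 and 0.0955 when a library was left out, with -0.0452 without D12 replicate 2), for Cdh1 (-0.0386 with quantile normalization, and between -0.013 and 0.0746 when a library was left out) and for Gata4 (-0.0154 with quantile normalization); the cause was not tested. Of the 314 genes the naming rule takes, 269 were called. Of these 269, 119 lost their call with a pseudocount of 5, and some lost it when a library was left out. With 2 libraries per group the SE of most genes rests on the spread in the other groups. FPKM holds no counts, so no counting interval is given, and values under about 0.1 FPKM may rest on single reads.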

Other observations

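Some members of gene groups outside the pathways above were called. Of 22 chemokine and leukocyte adhesion genes 4 were higher and 2 lower. Cxcl12, the ligand of CXCR4, was at 2.63 and 2.74 FPKM on D10 and at 13.3 and 12.7 FPKM on D12 (log2 fold change 1.93 ± 0.27, limma adjusted p = 0.00014), and Cx3cl1 fell (-1.12). Of 34 Hox genes 4 were lower and none higher by limma (13 lower and 1 higher at an unadjusted p under 0.05), among them Hoxa7 (-1.40) and Hoxb9 (-1.18); with a pseudocount of 5 none was lower. Of 19 hypoxia genes Egln3, an oxygen-sensing hydroxylase, fell (-1.84) and P4ha2, a collagen hydroxylase, rose (1.32). Of 30 genes of cholesterol and fatty acid synthesis Fads2, a desaturase, fell (-1.50). None of 21 genes of H3K9 methylation and heterochromatin was called by limma, and at an unadjusted p under 0.05, 3 were higher and 4 lower.

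Noncoding classes of the annotation divided unevenly between the directions. Of 116 tested genes that await experimental annotation (the class TEC) 36 were higher and 4 lower, of 348 lincRNA genes 37 were higher and 18 lower, and of 113 snoRNA genes 1 was higher and 16 lower; the FPKM of genes as short as snoRNAs is unreliable. Of all tested genes 6.02% were higher and 4.62% lower. The filter on low values bears on these counts: 510 genes passed it only through the D10 and D12 libraries, 224 of them higher and 9 lower. How many of these belong to each class was not counted, so the counts by class are a description. Protein-coding genes differed with their exonic length. The median log2 difference was 0.16 over 426 genes of up to 1000 bases and -0.13 over 2272 genes of more than 8000 bases. Removing this trend left 1646 genes called, 1039 higher and 607 lower.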
